A study of Mus musculus with 24 samples.

Results

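Cholesterol efflux, its control by the liver X receptors (LXR) and the handling of lipoproteins were described in cells sorted as mouse endothelium. This was done through 10 genes: Nr1h2, Nr1h3, Abca1, Abcg1, Lrp1, Vldlr, Hdlbp, Lipg, Pltp and Apoe. They were found on the arrays as the probes whose transcript accession maps to one of these genes, which gave 13 probes of 41174, or 10 of 18539 named genes. Where a gene had several probes, 3 for Hdlbp and 2 for Vldlr, the brightest one in the tissue was read and the others are given beside it. The study compared male galectin-3-deficient mice (KO), which lack exons 2 to 4 of Lgals3 in every cell, with wild-type C57BL/6 mice (WT). From 8 weeks of age the mice were fed a high-fat diet (HFD, 60% of calories from fat) or standard chow (12%) for 8 weeks. Live CD105+/CD45- cells were then sorted from the aorta and from hindlimb skeletal muscle, so all groups share the sort on endoglin and none is defined by a second endothelial surface marker. Each of the 8 groups of tissue, strain and diet had 3 arrays, 1 from each of 3 experiments, and each array held RNA pooled from 3 or 4 animals, so the spread between arrays is between pools and not between animals.

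Cells cannot break down the sterol ring, so surplus cholesterol leaves through efflux pumps to lipoprotein particles in plasma. Oxidised sterols activate LXRα and LXRβ, which bind DNA with retinoid X receptors and raise transcription of the pumps and of several lipoprotein proteins. Endothelium meets plasma lipoproteins first: it takes up and transports them through receptors of the LDL receptor family, and carries on its surface the lipases that act on them.

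The DNA element that LXR binds is a direct repeat of AGGTCA spaced by 4 bases, called DR4. The RefSeq promoter windows (GRCm38.p6) held 14 windows for 8 of the genes, and none for Abcg1 and Lipg. In the 250 bases before each start, both strands were searched for this repeat, AGGTCA followed by any 4 bases and AGGTCA again, with at most 3 mismatches in its 12 fixed letters. Of the 14 windows of these genes, that of Abca1 alone had a match, against 18.5% of 32851 windows of all genes. The match lies on the strand opposite to the gene, from 67 to 52 bases before the start. It is shown because Abca1 is the best-known LXR target, at chr4:53159940-53159969 in the direction of the gene (minus strand), with the match in capitals.
Abca1 element: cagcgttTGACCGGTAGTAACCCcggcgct
Nr1h3 has 2 overlapping windows, the other at chr2:91195036-91195285, also without a match. The upstream one is shown because that gene was lower on HFD in every pair of arrays described here. It lies at chr2:91195117-91195366 on the minus strand and holds no match, and no exact half-site AGGTCA on either strand was found in any of the 14 windows, against 14% of all windows. A match is a description of letters and not a binding site, and its absence says only that these letters are not in the window.
Nr1h3 upstream window: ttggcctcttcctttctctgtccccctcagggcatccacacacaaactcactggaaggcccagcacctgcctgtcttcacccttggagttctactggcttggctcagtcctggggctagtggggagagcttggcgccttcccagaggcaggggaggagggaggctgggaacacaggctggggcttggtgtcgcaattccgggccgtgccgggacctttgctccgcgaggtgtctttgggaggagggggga

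Signals are given as log2 of the processed signal relative to the 75th percentile of the same array, so 0 is the level of that percentile and 1 unit is a doubling. The 24 arrays had a 75th percentile of 2390 to 5938 units, and 59.5 to 75.7% of their spots were well above background, with no saturated spot. All 12 endothelial markers, Pecam1, Cdh5 and Kdr among them, were well above background on all 24 arrays. The sum of their signals, in multiples of the 75th percentile, ranged from 162 to 517 in aorta and from 499 to 800 in muscle. Markers of other cells were also present. The sum over 8 fibroblast markers was 287 to 632 in aorta and 23.5 to 223 in muscle. That over 11 skeletal muscle fibre markers was 1.69 to 7.91 in aorta and 22.1 to 178 in muscle. In aorta the median fibroblast sum was 364 and the median endothelial sum 307, against 60.2 and 577 in muscle. In aorta and muscle, the sum was 4.17 to 263 and 5.4 to 64.7 for 9 adipocyte markers. For 8 smooth muscle markers it was 43.9 to 96.4 and 54 to 119. For 7 pericyte markers it was 48.9 to 104 and 55.3 to 133. These sums are over different genes and do not give shares of cells. The Lgals3 probe was well above background on all 24 arrays and read higher in the KO member of 11 of 12 matched pairs. Where this probe lies in the gene was not analysed here, so it does not check the strain labels, and WT and KO below mean the arrays so labelled. In pooled sorted cells, fewer cells of a type and less RNA per cell cannot be told apart.

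The members were measured on nearly all arrays. Of the 13 probes, 12 were well above background on all 24 arrays. The exception was Lipg, endothelial lipase, which hydrolyses HDL phospholipids: it was well above background on 4 of 12 aortic and 8 of 12 muscle arrays.

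**Figure D1:**
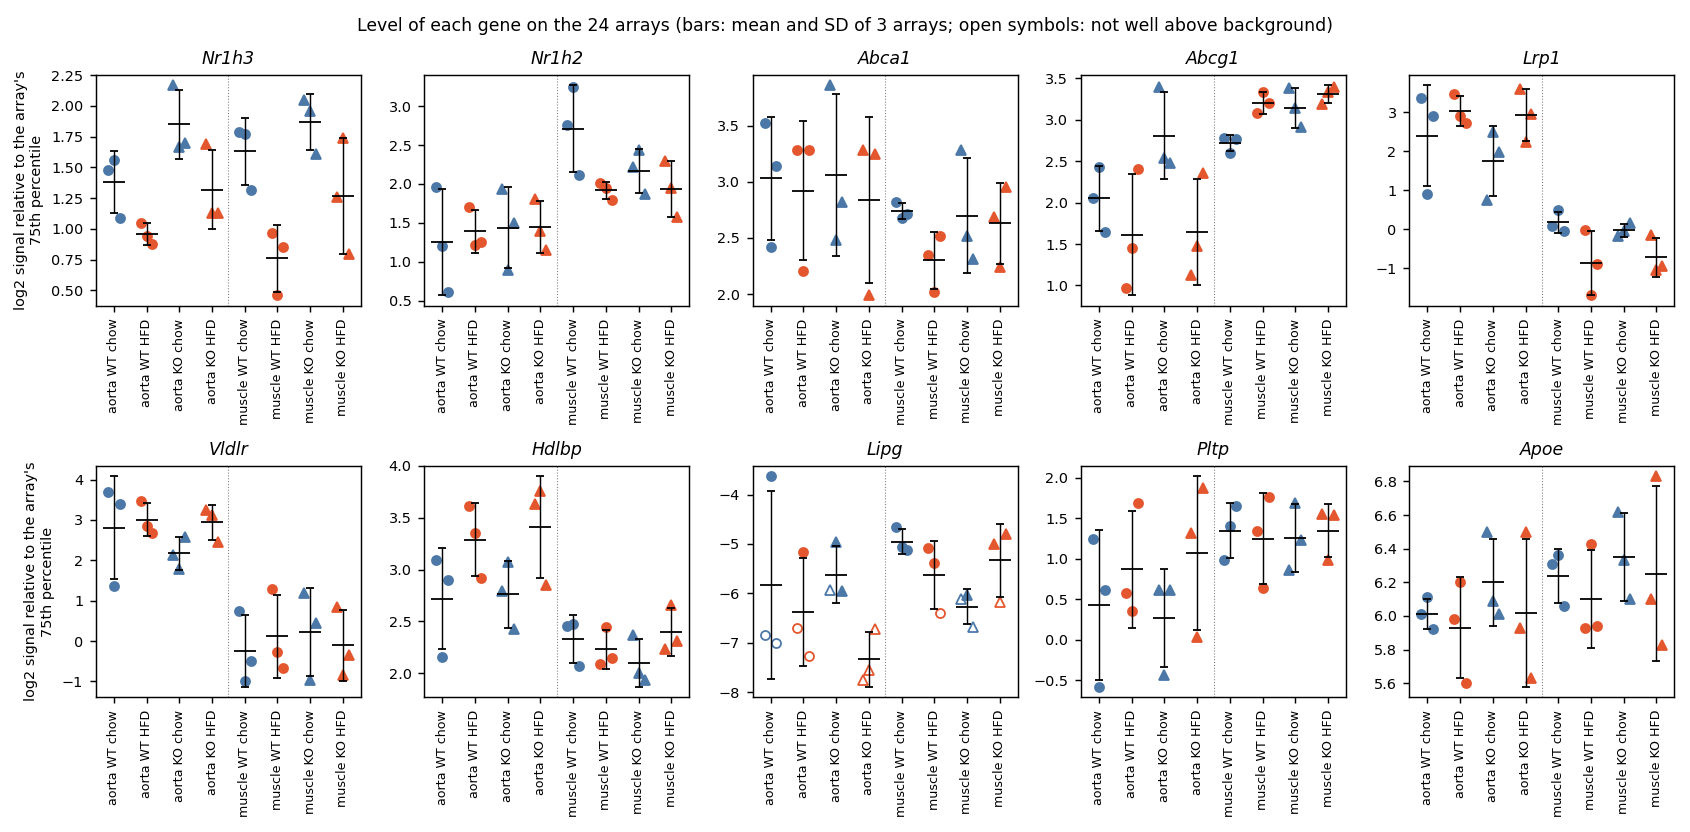
Log2 signal relative to the 75th percentile of the array for the 10 genes in the 8 groups, each on its brightest probe over both tissues. Points are single arrays (circles WT, triangles KO, blue chow, red HFD) and bars are mean and SD of 3. Lrp1 and Vldlr lie higher in every aortic array than in any muscle array, and Lipg is at the background (open symbols) on many arrays.

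The first question was how the genes differ between the cells sorted from aorta and those sorted from muscle. Lrp1 and Vldlr, both receptors of the LDL receptor family, were the members that differed most: they were 7.34-fold and 6.66-fold higher in aorta. The cholesterol pump Abcg1 and the receptor LXRβ (Nr1h2) were lower in aorta, 2.09-fold and 1.75-fold. Nr1h3, Abca1 and Apoe did not pass the test. In all, 6 of the 10 members passed an adjusted p of 0.05 (limma, Benjamini-Hochberg over 27387 probes), against 46.1% of all probes: 3 were higher in aorta, where 16% of all probes were, and 3 were lower, where 30.1% were. At an unadjusted p of 0.05, 7 of 10 members passed, against 53.4% of all probes. These shares are not far from those of the whole array. Over all probes the median difference was -0.27, so aortic signals were lower as a whole on this scale, and 6 members lay above and 4 below that median. The member that passed without adjustment alone was Lipg. It entered this test only through the WT chow group of muscle, its highest group, so the count of 7 is not read further. Each slide held 1 tissue, so slide and tissue cannot be fully told apart.

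Nr1h3 encodes LXRα. Its level in the aorta had a lowest, median and highest value of 0.88, 1.30 and 2.17, and in muscle 0.46, 1.47 and 2.05. The ranges overlapped almost wholly, and the fitted difference was -0.01 ± 0.13 (SE, adjusted p = 0.971, limma). Nr1h2 encodes LXRβ, the more widely expressed form. It ran from 0.61 through 1.32 to 1.96 in aorta and from 1.58 through 2.06 to 3.24 in muscle. The ranges overlapped between 1.58 and 1.96, all 12 pools of animals were lower in aorta than in muscle, and the difference was -0.80 ± 0.18 (adjusted p = 0.00123). It was -0.60 (adjusted p = 0.0851) without experiment 2. Relative to the median of all probes, it was -0.53. Within single groups the difference passed in WT on chow alone (-1.45, adjusted p = 0.00963). In KO on chow, WT on HFD and KO on HFD it was -0.74, -0.53 and -0.5, with adjusted p from 0.256 to 0.376.

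Abca1 passes cholesterol and phospholipid to lipid-poor apolipoprotein A-I. It ran from 1.99 through 3.20 to 3.86 in aorta and from 2.02 through 2.60 to 3.28 in muscle. These ranges overlapped, and the difference was 0.37 ± 0.21 (adjusted p = 0.163). With the pool of animals as a block it passed (adjusted p = 0.0305). Abcg1 passes cholesterol to mature HDL. It ran from 0.97 through 2.21 to 3.40 in aorta and from 2.60 through 3.16 to 3.40 in muscle. Muscle arrays were close to each other and aortic arrays were spread, and 11 of 12 pools were lower in aorta. The difference was -1.06 ± 0.18 (adjusted p = 8.9e-05), or -0.79 relative to the median of all probes. Within single groups it was -1.59 in WT on HFD and -1.66 in KO on HFD, but -0.66 in WT on chow (adjusted p = 0.228) and -0.34 in KO on chow (adjusted p = 0.649).

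Lrp1 is a large endocytic receptor that takes up ApoE-bearing remnants and many protease complexes. It ran from 0.76 through 2.81 to 3.59 in aorta and from -1.67 through -0.10 to 0.49 in muscle. No aortic array was as low as any muscle array, which held for Lrp1 and Vldlr among the members and for 3.55% of all probes. The reverse, every muscle array above every aortic one, held for 0 members and for 2.1% of all probes. The difference was 2.88 ± 0.28 (adjusted p = 1.72e-07) and was above 0 in 12 of 12 pools, from 0.43 to 4.57. Vldlr binds triglyceride-rich particles and, with lipoprotein lipase, helps fatty acids into tissue. It ran from 1.36 through 2.77 to 3.68 in aorta and from -0.98 through -0.30 to 1.28 in muscle, and the difference was 2.74 ± 0.33 (adjusted p = 2.41e-06). Its second, dimmer probe differed by 2.60 ± 0.35 (adjusted p = 9.11e-06), so the 2 Vldlr probes gave the same direction and a like size. On that second probe the tissues overlapped, with a lowest aortic value of -1.88 and a highest muscle value of -1.24. In KO on chow, neither receptor passed by itself: Lrp1 differed by 1.77 (adjusted p = 0.0706) and Vldlr by 1.94 (adjusted p = 0.0974). All 8 fibroblast markers were also called higher in aorta, with a median difference of 4.16, and 11 of 12 endothelial markers were called lower, with a median of -1.06. Their part in the values of Lrp1, Vldlr and Abcg1 was not tested.

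Hdlbp, or vigilin, is an RNA-binding protein first named for binding HDL. Its brightest probe over both tissues ran from 2.16 through 3.00 to 3.76 in aorta and from 1.93 through 2.27 to 2.66 in muscle. It was higher in aorta by 0.78 ± 0.15 (adjusted p = 0.000311). Within single groups this probe passed in WT on HFD (1.06, adjusted p = 0.0186) and KO on HFD (1.01, adjusted p = 0.0248). It did not pass in WT on chow (0.38, adjusted p = 0.422) or KO on chow (0.66, adjusted p = 0.214). The other probes differed by -0.20 ± 0.22 (adjusted p = 0.484) and 0.31 ± 0.40 (adjusted p = 0.53), so the probes of Hdlbp disagree and the call rests on 1 of 3. The mean of the 3 probes gave 0.30 (adjusted p = 0.132).

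Pltp moves phospholipid between lipoproteins in plasma. It ran from -0.58 through 0.62 to 1.87 in aorta and from 0.64 through 1.38 to 1.76 in muscle. The ranges overlapped, and the difference of -0.64 ± 0.26 was just past the threshold (adjusted p = 0.0479). The call was lost when any 1 experiment was left out, with adjusted p from 0.083 to 0.323. No single group passed by itself, with adjusted p from 0.248 to 0.75, and the call was kept in 4 of 14 recomputed values. Lipg ran from -7.75 through -6.72 to -3.63 in aorta and from -6.68 through -5.26 to -4.65 in muscle, much of it at the background. Its fitted difference was -0.75 ± 0.35 (adjusted p = 0.0877), and -1.30 (adjusted p = 0.00258) without experiment 2. Lipg entered both fits only through WT on chow in muscle, its highest group. The filter thus favours a lower value in aorta, so these values are a description and no call is read from them. Apoe, the ligand for Lrp1, Vldlr and the LDL receptor, was printed as 10 spots, which were averaged. It ran from 5.60 through 6.01 to 6.50 in aorta and from 5.83 through 6.20 to 6.83 in muscle, with a difference of -0.20 ± 0.14 (adjusted p = 0.271).

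**Figure D2:**
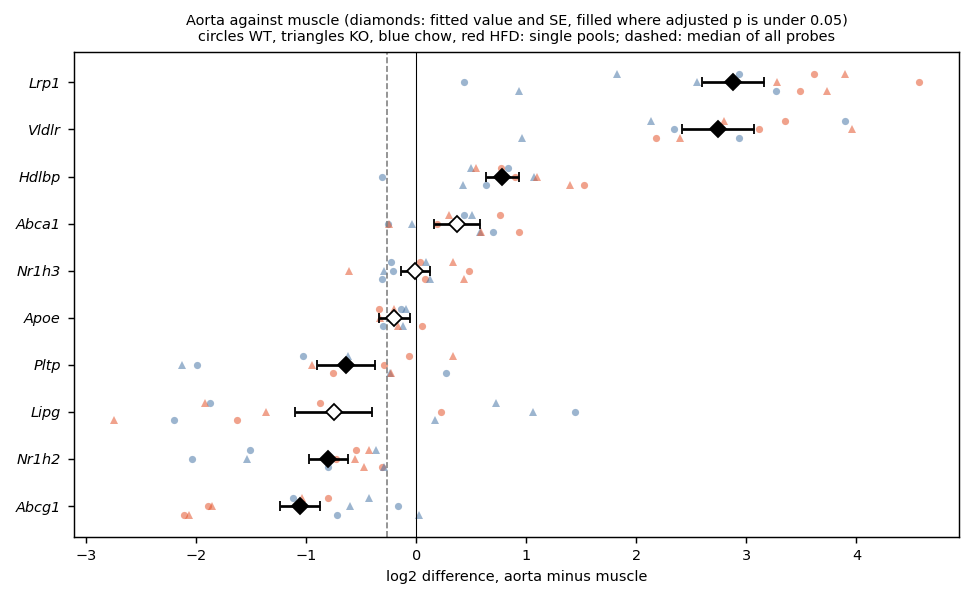
Log2 difference between aorta and muscle for the 10 genes. Small symbols are the 12 animal pools (circles WT, triangles KO, blue chow, red HFD), diamonds are fitted values with SE, filled where the adjusted p is under 0.05, and the dashed line is the median of all probes (-0.27). All 12 pools of Lrp1 and Vldlr lie above 0.

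The order of the 8 group means followed tissue for some genes and not for others. For Lrp1, the means fell from 3.03 ± 0.39 (SD, n = 3) in aorta of WT on HFD to -0.86 ± 0.83 in muscle of WT on HFD. The gap between the lowest aortic group, KO on chow at 1.75 ± 0.90, and the highest muscle group, WT on chow at 0.18 ± 0.27, exceeded the larger of the SDs of both. The gap between the muscle groups on chow and on HFD, from -0.02 ± 0.17 to -0.71 ± 0.50, did so too. For Vldlr the same single gap between tissues exceeded the SD, from 2.17 ± 0.40 in aorta of KO on chow to 0.22 ± 1.09 in muscle of KO on chow. For Abcg1 the order was mixed: the 3 highest means were in muscle, from 3.31 ± 0.11 to 3.14 ± 0.24, the aorta of KO on chow followed at 2.81 ± 0.52, and WT on HFD in the aorta was lowest at 1.61 ± 0.73. Elsewhere the gap exceeded the SD once each for Abcg1, Hdlbp and Nr1h2. Neighbours in the orders of Nr1h3, Abca1, Lipg, Pltp and Apoe did not differ beyond their SD. For Nr1h3 the 4 chow groups, from 1.87 ± 0.23 to 1.38 ± 0.25, nonetheless ranked above the 4 HFD groups, from 1.32 ± 0.32 to 0.76 ± 0.27.

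The second question was how the genes respond to HFD, read as the difference between HFD and chow arrays of the same strain and experiment. Nr1h3 was lower on HFD in all 12 pairs over both tissues and strains. No member passed the adjusted test in either tissue. In aorta, 0 of 9 members tested were called, against 0.0309% of 25865 probes for the mean of both strains, and in muscle 0 of 10, against 0.288% of 25682. At an unadjusted p of 0.05, 2 of 9 members passed in aorta, where 15.1% of all probes did, and 3 of 10 in muscle, where 16.4% did. Taken by strain, 0 of 9 members passed that threshold in WT aorta (5.77% of all probes) and 0 of 9 in KO aorta (11.3%), 3 of 10 in WT muscle (12.1%) and 1 of 10 in KO muscle (8.49%). None was called in any of these, where 0% of all probes were, or 0.00389% in KO muscle. Within the aorta, 1 member was lower on HFD in all 6 pairs (Nr1h3), as were 4.55% of all probes, and 1 was higher (Hdlbp). Within muscle, 1 was lower in all 6 pairs (Nr1h3), against 5.73%, and 0 were higher, against 5.63%. HFD arrays lay wholly below chow arrays for Nr1h3 in WT aorta (3.69% of all probes), for Abcg1 and Lipg in KO aorta (6.96%), for Abca1, Nr1h2 and Nr1h3 in WT muscle (7.81%), and for 0 members in KO muscle (4.98%). They lay wholly above only for Abcg1 in WT muscle, against 6.51% of all probes there, 3.68% in WT aorta, 7.25% in KO aorta and 4.05% in KO muscle. Lipg was not tested in aorta, being well above background on all arrays of no aortic group, and was tested in muscle only through WT on chow. Its place in KO aorta is thus read at the background, with 0 of 3 HFD arrays well above it, and the 6.96% covers tested probes only.

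Nr1h3 in the aorta of WT read 1.48, 1.56 and 1.09 on chow and 1.05, 0.94 and 0.88 on HFD in experiments 1, 2 and 3. In KO aorta it read 2.17, 1.67 and 1.70 on chow and 1.69, 1.13 and 1.13 on HFD. The WT groups did not overlap, which held for 3.69% of all probes in this direction, and the KO groups overlapped by 1 array, the HFD array of experiment 1. In WT muscle it read 1.79, 1.77 and 1.32 on chow and 0.97, 0.46 and 0.85 on HFD, again without overlap, as for 7.81% of all probes. In KO muscle it read 2.05, 1.96 and 1.61 on chow and 1.26, 1.74 and 0.80 on HFD, where the HFD array of experiment 2 overlapped the chow arrays. The mean difference was -0.48 ± 0.17 in aorta (SE, unadjusted p = 0.0261, adjusted p = 0.279, limma) and -0.73 ± 0.18 in muscle (unadjusted p = 0.00473, adjusted p = 0.143). By strain it was -0.87 ± 0.25 in WT muscle (adjusted p = 0.269) and -0.60 ± 0.25 in KO muscle (adjusted p = 0.588).

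Of 26753 probes with a value in every pair, 0.658% were lower on HFD in all 12 pairs. Aorta and muscle arrays of 1 experiment, strain and diet come from the same animals, so the 12 pairs are not 12 independent sets of animals. The mean over both tissues and strains was added as a comparison after these pairs were seen. Its fit treats the pairs of both tissues as independent, so its SE and p do not allow for the shared animals. In it Nr1h3 fell by 0.60 on the log2 scale, with an SE of 0.11 and an adjusted p of 0.0275, the 1 member of 10 called, against 2.79% of 27387 probes. It was not called when any 1 experiment was left out, with values from -0.57 to -0.65 and adjusted p from 0.0899 to 0.227, nor when dim probes were kept (adjusted p = 0.0652). The other LXR gene, Nr1h2, did not share the pattern in aorta, where its mean difference was 0.07 ± 0.21 (adjusted p = 0.9). In WT muscle Nr1h2 read 2.76, 3.24 and 2.12 on chow and 2.01, 1.95 and 1.80 on HFD, without overlap. Its mean difference in muscle was -0.51 ± 0.18 (unadjusted p = 0.0276, adjusted p = 0.247), and in WT muscle alone -0.78 ± 0.26 (adjusted p = 0.313).

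The efflux pumps gave no call. Abca1 differed by -0.16 ± 0.21 in aorta (adjusted p = 0.747) and -0.26 ± 0.20 in muscle (adjusted p = 0.56), and was lower on HFD in 9 of 12 pairs. The values of Abcg1 were below 0 in 5 of 6 aortic pairs and above 0 in 5 of 6 muscle pairs. In KO aorta it read 3.40, 2.54 and 2.48 on chow and 1.12, 1.48 and 2.36 on HFD, without overlap, as for 6.96% of all probes. In WT aorta the pairs disagreed, at -1.09, -0.98 and 0.75. The mean difference was -0.80 ± 0.37 in aorta (adjusted p = 0.365) and 0.33 ± 0.16 in muscle (adjusted p = 0.364). The response in aorta minus that in muscle was -1.13 ± 0.42 (unadjusted p = 0.0233, adjusted p = 0.447). At that unadjusted threshold Abcg1, Lrp1 and Lipg passed this comparison, where 9.24% of all probes did. Lipg entered it only through WT muscle on chow, so no count is read from it, and none was called, as no probe was (0% of 27387). The mean log2 signal of the 12 endothelial markers moved with Abcg1 in aorta: it differed between HFD and chow by -0.94, -1.10 and 0.64 in WT and by -1.61, -0.92 and -0.10 in KO. In muscle the same mean differed by -0.19 to 0.07. Its part in the Abcg1 values was not tested.

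Lrp1 had pairs on both sides of 0 in aorta and was lower on HFD in 5 of 6 muscle pairs. Its aortic pairs were 0.10, 1.98 and -0.19 in WT and 2.83, -0.26 and 0.96 in KO, and its muscle pairs -0.11, -2.15 and -0.86 in WT and 0.03, -0.99 and -1.11 in KO. Single pairs set the size in aorta: 1.98 and 2.83 come from chow arrays that read 0.92 and 0.76, the lowest aortic values of the gene. The mean difference was 0.90 ± 0.46 in aorta (adjusted p = 0.405) and -0.87 ± 0.30 in muscle (unadjusted p = 0.0236, adjusted p = 0.235). WT muscle alone gave -1.04 ± 0.42 (adjusted p = 0.399), and the response in aorta minus muscle was 1.77 ± 0.60 (unadjusted p = 0.0138, adjusted p = 0.397). The mean signal of the fibroblast markers was higher on HFD in all 6 muscle pairs, by 0.21 to 2.38, while Lrp1 was lower in 5 of them. In aorta the same mean differed by 0.12, 1.24 and -0.11 in WT and by 0.73, 0.96 and 0.21 in KO. The part of fibroblasts in the Lrp1 values was not tested. Vldlr differed by 0.48 ± 0.35 in aorta (adjusted p = 0.545) and 0.01 ± 0.20 in muscle (adjusted p = 0.98).

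Hdlbp was higher on HFD in all 6 aortic pairs, as were 5.85% of all probes. The pairs ran from 0.02 to 1.19, with a mean difference of 0.61 ± 0.21 (unadjusted p = 0.0245, adjusted p = 0.273). A second probe gave 0.65 ± 0.23 and was also higher in 6 of 6 pairs, while the third and dimmest gave -0.22 ± 0.49. In muscle another of the 3 probes was the brightest and gave -0.36 ± 0.22 (adjusted p = 0.467). The probe read in aorta had 3 of 6 muscle pairs above 0, with a mean of -0.1 in WT and 0.3 in KO. Pltp differed by 0.63 ± 0.28 in aorta (adjusted p = 0.356) and 0.00 ± 0.25 in muscle (adjusted p = 0.997). Apoe differed by -0.13 ± 0.20 in aorta (adjusted p = 0.79) and -0.12 ± 0.18 in muscle (adjusted p = 0.784). Lipg in muscle gave 0.14 ± 0.29 (adjusted p = 0.839), and its response in aorta minus that in muscle was -1.28 ± 0.46 (unadjusted p = 0.019, adjusted p = 0.427), with no aortic array of KO on HFD well above background.

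**Figure D3:**
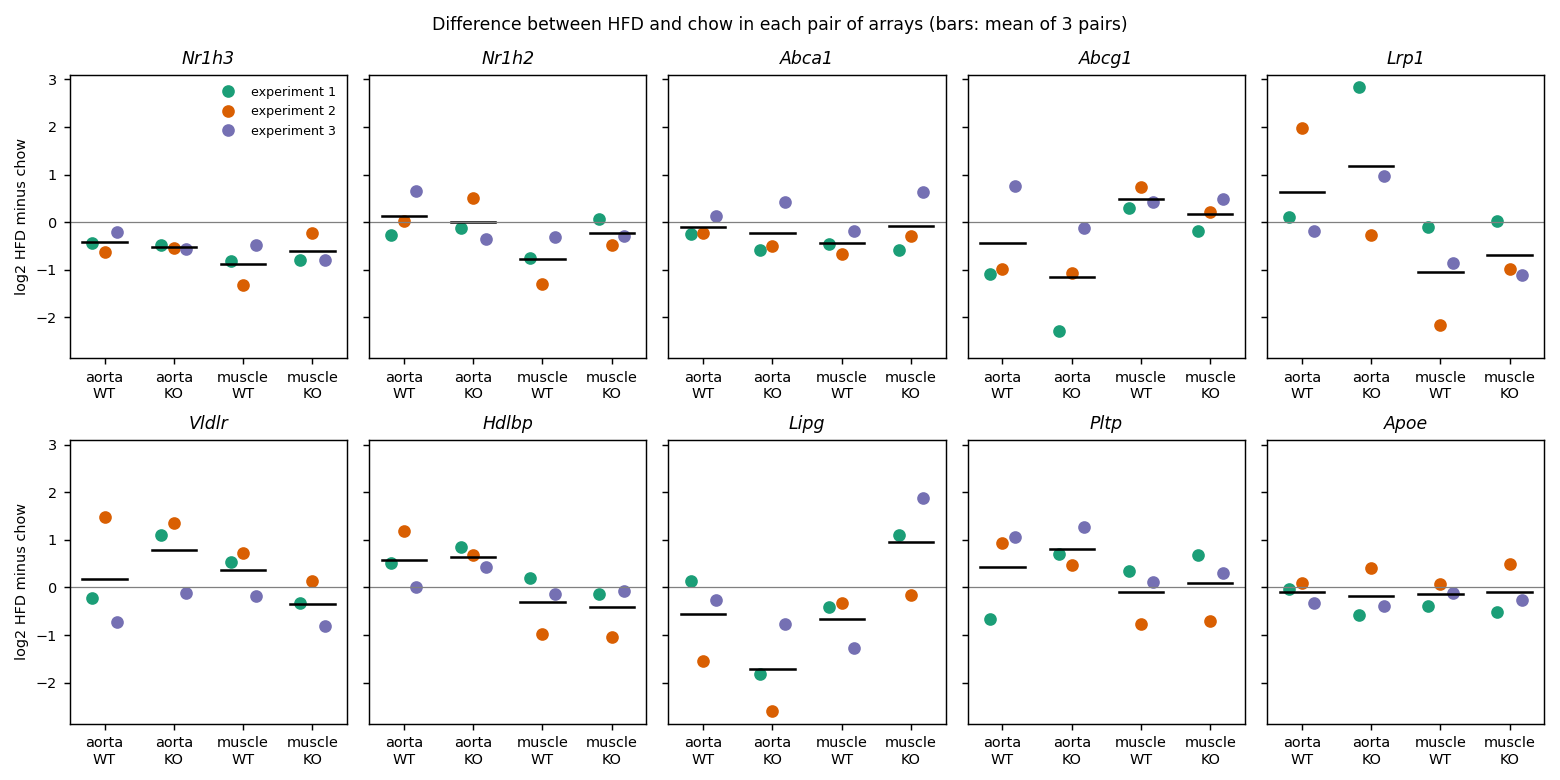
Log2 difference between HFD and chow for each of the 12 pairs of arrays, coloured by experiment, with bars at the mean of 3 pairs. Each gene is on its brightest probe in the tissue. Nr1h3 is below 0 in every pair, and Lrp1 and Abcg1 have pairs on both sides of 0.

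**Figure D4:**
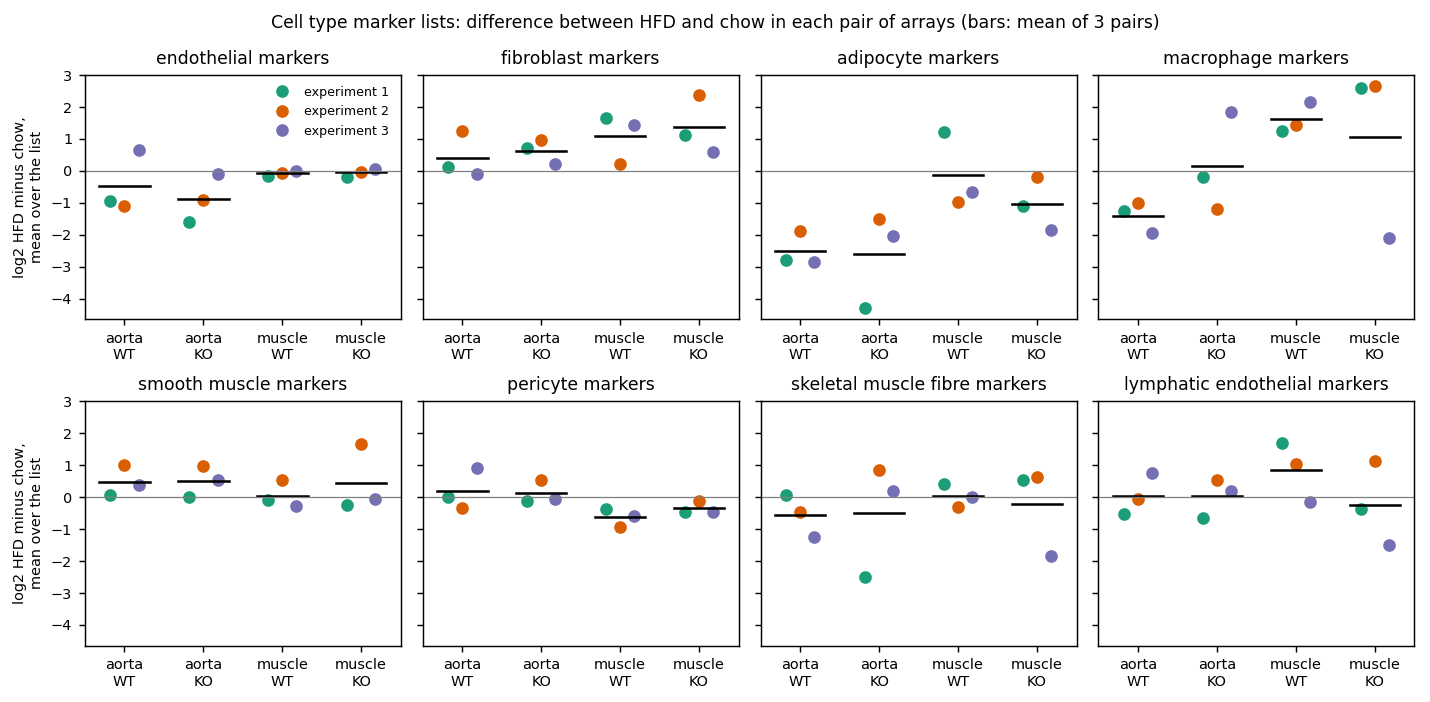
Log2 difference between HFD and chow in the mean signal of 8 lists of cell type markers, for each pair of arrays, with bars at the mean of 3 pairs. The adipocyte markers are lower on HFD in all 6 aortic pairs, from -1.49 to -4.30, and the fibroblast markers are higher in all 6 muscle pairs.

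Markers of other cells moved with diet beside these genes. The mean signal of 9 adipocyte markers was lower on HFD in all 6 aortic pairs, by 1.49 to 4.30 on the log2 scale, and in 5 of 6 muscle pairs. That of 13 macrophage markers was lower in all 3 WT aortic pairs, from -1.01 to -1.94, was -0.19, -1.19 and 1.83 in KO aorta, and was higher in 5 of 6 muscle pairs. LXRα is known from macrophages and adipocytes as well as endothelium. Nr1h3 was lower in all 12 pairs, of which 11 had a lower mean of adipocyte markers, 10 of endothelial, 6 of macrophage and 1 of fibroblast markers. The part of any of these cells in the members' values was not tested.

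The third question was whether strains differ. No member was called in any of the 6 comparisons of KO with WT or of their responses. On chow these were 0 of 9 in aorta, against 0.0116% of all probes, and 0 of 10 in muscle, against 0%. On HFD they were 0 of 9 in aorta, against 0.00387%, and 0 of 10 in muscle, against 0%. The response to HFD in KO minus WT gave 0 of 9 in aorta and 0 of 10 in muscle, against 0% of probes in both. At an unadjusted p of 0.05, 0 of 9 members passed in aorta on chow (4.41% of all probes), on HFD (1.15%) and in the response (2.62%). In muscle 1 of 10 passed on chow (2.42%), 0 on HFD (3.15%) and 1 in the response (4.12%), in both cases Lipg. It read -4.65, -5.07 and -5.12 in WT on chow and -6.11, -6.03 and -6.68 in KO on chow, where 1 of 3 arrays was well above background. The groups did not overlap, as for 3.46% of all probes in this direction. The difference was -1.33 ± 0.43 (unadjusted p = 0.00999, adjusted p = 1), and the response to HFD in KO minus WT was 1.62 ± 0.57 (unadjusted p = 0.0261, adjusted p = 0.999). Since Lipg passed the filter through WT on chow, the group where it was highest, these values are a description.

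With the slide, which is the experiment, as a block, no member was called between strains either, against 0.00387% of all probes in aorta on either diet and 0% in muscle. The unadjusted share of all probes was then 6.03% and 1.75% in aorta on chow and HFD and 4.52% and 5.44% in muscle. In muscle on chow Lipg (-1.33 ± 0.40, unadjusted p = 0.00929, adjusted p = 0.889, limma) and Nr1h2 (-0.53 ± 0.22, unadjusted p = 0.0427, adjusted p = 1) were under that threshold, and in the other 3 comparisons 0 members were.

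Abcg1, Nr1h3 and Apoe, chosen after their values were seen, did not pass in either fit. On chow, the KO array was higher for Abcg1 in all 3 aortic experiments, by 1.34, 0.10 and 0.83, and in all 3 muscle experiments, by 0.61, 0.54 and 0.14. On HFD the Abcg1 differences were 0.14, 0.03 and -0.04 in aorta and 0.11, 0.01 and 0.20 in muscle. On chow Nr1h3 was higher by 0.69, 0.11 and 0.60 in aorta and by 0.26, 0.19 and 0.29 in muscle. On HFD the Nr1h3 differences were 0.64, 0.20 and 0.25 in aorta and 0.29, 1.28 and -0.05 in muscle. All KO arrays on chow lay above all WT arrays for Abcg1 and Nr1h3 in aorta, as for 3.45% of all probes. The same held for Abcg1 in muscle on chow (4.45% of all probes) and for Nr1h3 in aorta on HFD (2.11%). The share of all probes higher in KO in all 3 experiments was not computed. Apoe differed by 0.09 to 0.19 in the 4 group means, all less than their SD.

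Other genes of these pathways were read from 4 lists, 63 genes in all, of which 59 had a probe and 54 entered the comparison of tissues. There, 22 were called higher and 12 lower in aorta, where 16% and 30.1% of all probes were, with a median difference of 0.19 against -0.27 for all probes. By list the called counts, higher and lower, were 5 and 3 of 17 LXR partners and targets, 4 and 3 of 8 lipoprotein receptors and adaptors, 6 and 4 of 14 sterol transporters and handling genes, and 7 and 2 of 15 lipases, apolipoproteins and carriers. Highest in aorta were the sterol pump Abcg4 (5.28 ± 0.50), the HDL-borne paraoxonases Pon3 (4.41 ± 0.25) and Pon1 (4.37 ± 0.75), the apolipoprotein Apoc1 (3.73 ± 0.38) and the desaturase Scd1 (2.74 ± 0.37), an LXR target. Pon1 turned to -1.29 in WT on HFD, and Pon1 and Abcg4 were each well above background on 7 of 12 muscle arrays. Lowest in aorta were the HDL receptor Scarb1 (-1.62 ± 0.19), the ubiquitin ligase Mylip (-1.11 ± 0.18), which marks receptors of the LDL receptor family for degradation, the transporter Abca7 (-1.10 ± 0.14), the lipase anchor Gpihbp1 (-0.93 ± 0.16) and lipoprotein lipase, Lpl (-0.92 ± 0.17). Adipocyte markers were called higher in aorta for 7 of 8 genes tested, with a median difference of 2.36, and their part in the values of Scd1 was not tested.

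With diet, no pathway gene was called in a single tissue. In aorta the smallest unadjusted p were those of Pon1 (-5.53 ± 0.83, adjusted p = 0.096) and the sterol half-transporter Abcg5 (adjusted p = 0.125), the latter well above background on no array of 2 of the 8 groups. In muscle they were those of Mylip (-0.75 ± 0.16, adjusted p = 0.125) and the sterol hydroxylase Cyp27a1 (-1.49 ± 0.33, adjusted p = 0.127). In the added mean over tissues and strains, 0 of 54 were called higher and 3 lower, against 1.53% and 1.26% of all probes. Mylip, itself an LXR target, fell by 1.06 on the log2 scale (adjusted p = 0.0338) and was lower in 11 of 12 pairs. Apoc1 fell by 2.06 (adjusted p = 0.0353) in 10 of 12 pairs, and Apoc3 passed as well (adjusted p = 0.0379), with 1 group that had no array well above background. All 3 calls were lost without experiment 1, without experiment 2 and with dim probes kept. Those of Apoc1 and Apoc3 were also lost without experiment 3, and that of Mylip with the mean of its probes (adjusted p = 0.0738). The call of Apoc3 was kept in 4 of 9 recomputed values. The median over the 54 genes was -0.05, against 0 for all probes.

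By strain, no pathway gene was called. The smallest unadjusted p on chow were those of Sort1 (0.89 ± 0.43) and Rxrg (1.35 ± 0.66) in aorta and of Apoc1 (1.79 ± 0.71) and Apoc3 in muscle. On HFD they were those of Pon1 (2.71 ± 1.39) and Sort1 (0.66 ± 0.43) in aorta and of Cyp27a1 (-1.64 ± 0.52) and Pon1 (-3.02 ± 1.39) in muscle. All of these had an adjusted p of 1. For the response in KO minus WT they included Apom (1.43 ± 0.54) in aorta and were Cyp27a1 (-2.32 ± 0.67) and Pon1 (-4.42 ± 1.80) in muscle, with adjusted p of 1 and 0.999. For the single strains on HFD against chow they included Pon1 (-7.18 ± 1.17) and Apoc3 in WT aorta, Abcg5 in KO aorta, Mylip (-0.90 ± 0.23) and Pon3 (1.11 ± 0.38) in WT muscle, and Cyp27a1 (-2.65 ± 0.47) and Lipa (-0.86 ± 0.28) in KO muscle. For the response in aorta minus muscle they were Abcg5 and the receptor Lrp4 (1.55 ± 0.34, adjusted p = 0.198).

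The genes whose pattern over the 24 arrays was most like each member were listed as a description. Arrays share groups and slides, so Pearson's r is given over the arrays and, in brackets, over deviations from the 8 group means. Lrp1 was closest to Grik5 at 0.97 (0.73), Mmp14 at 0.96 (0.85) and Rbms3 at 0.96 (0.84). Vldlr was closest to Ms4a4d at 0.97 (0.91), Emilin2 at 0.97 (0.95) and Bmpr1a at 0.97 (0.86). Lrp1 and Vldlr had an r of 0.89 (0.54) with each other, the highest among the members. Abcg1 was closest to Ahr at 0.97 (0.94), Rsad2 at 0.97 (0.94) and Etl4 at 0.96 (0.91), and was opposed to Lrp1 at -0.87 (-0.57). Hdlbp was closest to Foxd2os at 0.95 (0.84), Snap47 at 0.95 (0.91) and Cdk5rap3 at 0.94 (0.86).

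The remaining members had other neighbours. Nr1h3 was closest to Cyp1a1 at 0.79 (0.47), Lingo2 at 0.74 (0.66) and Acss2 at 0.73 (0.57). Abca1 was closest to Cebpa at 0.79 (0.82), Tmem135 at 0.72 (0.82) and Fmo5 at 0.71 (0.67). Nr1h2 was closest to Rusc1 at 0.91 (0.85), Vrk3 at 0.91 (0.88) and Ctdnep1 at 0.89 (0.82). Deviations of Nr1h2 and Nr1h3 from their group means went together, at 0.65, and those of Abca1 and Pltp at 0.68. Pltp was closest to Fbxw5 at 0.93 (0.96), Mlf2 at 0.91 (0.91) and Vps52 at 0.91 (0.88). Genes close to Apoe included Idh3g at 0.92 (0.93) and Hbp1 at 0.91 (0.93). Lipg, at the background on many arrays, was closest to 9430041J12Rik at 0.78 (0.74), Dnmt3b at 0.74 (0.73) and Zc3h13 at 0.74 (0.64).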

How the data were processed

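RNA from sorted cells was amplified and hybridised to 24 Agilent 1-colour arrays (Cy3), in 6 slides of 1 tissue and 1 experiment each. The authors deposited Feature Extraction files, whose processed signal is a background-subtracted intensity. The file headers name version 10.5.1.1 and the submitters' processing notes 9.1. A deposited table holds the same values on the log2 scale, shifted by 1 constant per array and scaled for each tissue apart, so it was used as an alternative and not between tissues.

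Control and outlier spots were left out, spots of a probe averaged, and log2 processed intensity set relative to the 75th percentile of the array. A probe was tested if all arrays of 1 or more groups measured it well above background, and the test was limma 3.58.1 in R 4.3.3 (lmFit, eBayes, Benjamini-Hochberg over all probes). Diet comparisons used the HFD and chow arrays of 1 strain and experiment as a pair, after the methods, and strain and tissue comparisons used group means. The number of arrays limits the precision. The fits were tested on simulated data: in the muscle diet comparison, with 25456 probes, 21% of log2 changes of 1 and 70% of log2 changes of 2 were recovered. The arrays' labels give separate experiments. Aorta and muscle arrays of 1 experiment, strain and diet come from the same animals. Deviations from group means of HFD and chow arrays with the same number had r of 0.01 to 0.46. Those of KO and WT arrays with the same number had r of 0.28 to 0.62 in aorta on HFD, 0.34 to 0.47 and 0.29 to 0.52 in muscle on chow and HFD, and 0.06 to 0.28 in aorta on chow, so the strain comparisons are also given with the slide, which is the experiment, as a block.

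The genes and lists were chosen with earlier results of these data known. All 10 members are given in levels, in aorta against muscle and in the mean response of each tissue, and elsewhere those with an unadjusted p under 0.05, beside Abcg1, Nr1h3 and Apoe between strains, chosen after their values were seen. Pathway genes are those called, at most 5 per direction, or the 2 with the smallest p. Some genes these rules name are not reported here. Alternatives were normexp (offset 50) on the median signal, quantile normalization, the deposited table, other filters, the mean of a gene's probes, other blocks, left-out experiments and the methods' t-test.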

Additional observations from a re-analysis of the deposited data

How the results depend on the processing

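Of 174 recomputed counts of members called, 167 stayed within 1.5 times the value reported. The reported count was 0 in every comparison but aorta against muscle and the added mean, so most of these counts could not fall, and their number says little about stability. Of the rest, 6 fell, all in those comparisons, and 1 rose. Of 917 recomputed gene values, 846 kept their direction and side of the threshold. Another 15 turned direction, 46 lost a call and 10 gained a call. A value that was not called at first could not lose a call, so the 846 says little about stability. In aorta against muscle 3 members were called within WT on chow and 0 within KO on chow, where each group holds 3 arrays. In the added mean over tissues and strains the count was 0 with no filter on dim probes, and 0 to 0 when each experiment was left out. The methods' t-test without adjustment called 2 of 9 members in KO aorta, against 6.77% of all probes with a value, and 0 members in the other 5 comparisons it covers, and with Benjamini-Hochberg adjustment it called no probe in any of its 6 comparisons. Directions turned as follows. In aorta against muscle, Nr1h3 became 0.02 with normexp, 0.01 with quantile normalization, 0.05 within KO on HFD, 0.20 within WT on HFD and 0.07 without experiment 2. In the same comparison Apoe became 0.04 with quantile normalization, Lipg 0.65 within KO on chow and Pon1, at 4.37 over all groups, -1.29 within WT on HFD. In the muscle diet mean, Pltp became 0.01 with the deposited table, 0.02 with normexp and 0.37 without experiment 2. There Vldlr became -0.03 and -0.19 without experiments 1 and 2, and Apoe 0.05 without experiment 1. In the aortic mean Nr1h2 became -0.02 without experiment 2. With each experiment left out in turn, these ran from -0.05 to 0.07 for Nr1h3 between tissues and, in the muscle mean, from -0.26 to 0.37 for Pltp, -0.19 to 0.26 for Vldlr and -0.32 to 0.05 for Apoe. The cause was not tested. With the animal pool as a replicate block, 7 members were called between tissues in place of 6, and with no replicate block the diet counts of members did not move. Lipg is limited by its signal over background.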

Other observations

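The probes that were not read for a gene gave some values of their own. The second Vldlr probe was higher on HFD in WT muscle in all 3 pairs, by 0.62, 0.71 and 1.27, with a mean of 0.87 ± 0.29 (SE, limma, unadjusted p = 0.0202, adjusted p = 0.316), while the brighter probe gave pairs of 0.53, 0.72 and -0.17. In KO muscle the second probe gave -0.16 ± 0.29, and the response in KO minus WT was -1.03 ± 0.41 (unadjusted p = 0.0405, adjusted p = 0.999). The third and dimmest Hdlbp probe was lower on HFD in WT muscle by 1.23, 1.30 and 1.54 on the log2 scale, with a mean of -1.35 ± 0.31 (unadjusted p = 0.00344, adjusted p = 0.22), a direction that the brightest Hdlbp probe in muscle had in 2 of 3 pairs. In KO muscle the third probe gave pairs of -0.60, 0.93 and 0.30, and its response in KO minus WT was 1.57 ± 0.44 (limma, unadjusted p = 0.00938, adjusted p = 0.999).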
